A study of Saccharomyces cerevisiae with 16 samples.

Results

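Hydrogen peroxide was set against no treatment in the budding yeast Saccharomyces cerevisiae, over all genes that the arrays measured. Of the 16 arrays of the series, 8 belong to this comparison, chosen by their titles: 4 carry RNA of cells given 0.3 mM H2O2 and 4 carry RNA of untreated control cells. All cells were of the strain BY4741 with no further genetic change, in early exponential growth in YEPD, a rich glucose medium, at 30 °C with shaking at 250 rpm, and the treatment lasted 1 h. BY4741 is a laboratory haploid of mating type a in which HIS3, LEU2, MET17 and URA3 have been disrupted, so the H2O2 and the control cells both carry these lesions. The remaining arrays, 4 of cells given 0.05 mM acrolein and 4 of cells given 0.016 mM NEM, serve here only to show where H2O2 differed from another thiol-reactive treatment. NEM, spelled only so in the labels, is taken to be N-ethylmaleimide. Nothing in the labels ties the 4 arrays of each kind to separate cultures. The p-values therefore rest on array-to-array spread that could be technical.

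Yeast meets hydrogen peroxide with enzymes that destroy it and with a transcription factor that senses it. Catalases split the peroxide, while peroxiredoxins and glutathione peroxidase-like enzymes reduce it with electrons that pass from NADPH through thioredoxin or glutathione. The peroxidase Hyr1, with Ybp1, oxidises Yap1, which then stays in the nucleus and switches on many of these same genes. Peroxide also damages iron-sulfur clusters, the iron and sulfur cofactors of enzymes such as those of lysine and leucine synthesis.

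The values are log2 signals as deposited, so that 1 unit is a 2-fold difference. They compare 1 probe set between groups, and the level of 1 gene cannot be set against that of another. In the text a difference is the H2O2 mean minus the control mean with its standard error, from a limma fit over 5785 probe sets, 5404 of them named genes, and n is 4 arrays in each group. A gene is called, and said to have risen or fallen, when its Benjamini-Hochberg adjusted p is under 0.05. Values at or under 5.15, the highest signal of 1746 probe sets for another yeast species on the same arrays, are treated as background. In bulk RNA a change per cell and a change in the number of cells that hold a transcript cannot be told apart.

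Most, but not all, markers of mating type and of the disrupted genes read as the strain requires. The 7 markers of mating type a lay between 9.08 and 13.48 on all 8 arrays, and 2 of the 4 alpha markers, the pheromone genes MF(ALPHA)1 and MF(ALPHA)2, lay at the bottom of the scale, from 1.92 to 1.93, while the alpha markers SAG1 and STE3 lay above the background level, SAG1 at 10.91 to 11.15 in H2O2 and 10.79 to 10.87 in control and STE3 at 6.01 to 6.65 in H2O2 and 6.24 to 7.59 in control. URA3 and MET17 read 1.92 everywhere, LEU2 1.92 to 1.98, and HIS3, whose lesion is partial and which gives no check, 11.43 to 11.76 in H2O2 and 11.06 to 11.51 in control. The mean signal of 7 ribosomal RNA probe sets varied within both groups, at 7.80, 11.56, 10.69 and 4.38 in H2O2 and 11.55, 10.68, 11.46 and 8.75 in control, with no difference past the exact permutation test (−2.01, p = 0.343, smallest possible 0.0286). The 3′ minus 5′ signal of the control transcripts, a sign of RNA integrity, was 0.63 to 0.78 in H2O2 and 0.60 to 0.72 in control (difference 0.09, exact permutation p = 0.0857).

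H2O2 changed many transcripts a little and few by much. Of the 5785 probe sets 1148 were called, or 19.8%, with 534 higher (9.23% of those tested) and 614 lower (10.6%). Most of these changes were small: 807 of the 1148, or 70.3%, were under 1.5-fold, and the median size of a called difference was 0.39. At 2-fold or more 141 were called (2.44%), 102 higher (1.76%) and 39 lower (0.674%). These counts use fitted differences, also where 1 group lies in the background. With such genes at their bound, the fold over the background level itself, 99 were higher and 33 lower by 2-fold or more. The median difference over all probe sets was −0.02. The groups below are read against it and against the shares of all probe sets called, 9.23% higher and 10.6% lower. Their lists were chosen with earlier results of these data known, so these comparisons are descriptive and carry no test. Where a list below has 0, 1 or 2 members called in a direction, that count moved by up to 2 when single arrays were left out, and by up to 3 under the other settings tried, and leaving out any of the 8 arrays moved at least 1 such count. Larger counts that moved by over 1.5 times at the same threshold are given beside the lists. At an adjusted p under 0.01 many larger counts shrank by over 1.5 times, which is not repeated there. Counts on the lower side shrank for nitrogen catabolite genes (11 to 5), the respiratory chain (10 to 4), the TCA cycle (6 to 3), histones (6 to 3) and general stress genes (5 to 3). On the higher side, lysine genes went from 6 to 3 and heat shock chaperones from 7 to 4. On 1459 probe sets (25.2%) the 4 H2O2 arrays did not overlap the 4 control arrays, lying above on 624 (10.8%) and below on 835 (14.4%).

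**Figure D1:**
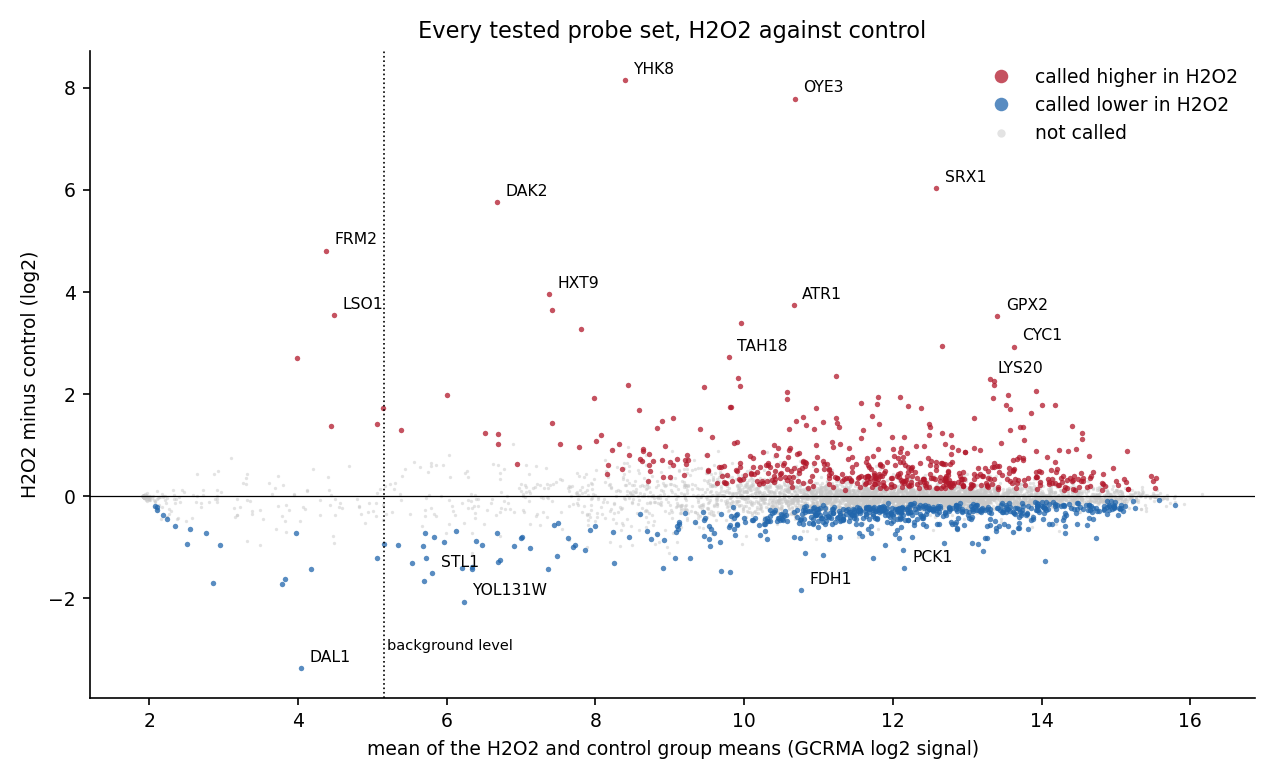
Each point is 1 of the 5404 tested named genes. The x axis gives the mean of both groups' log2 signals and the y axis the H2O2 minus control difference (log2). The 381 tested probe sets without a gene name are not drawn, although the title speaks of every tested probe set. Red points were called higher, blue points called lower and grey points not called, and the dotted line marks the background level of 5.15. The differences are fitted ones. Those of YHK8 (8.15, control in the background) and DAL1 (−3.37, H2O2 in the background) are not measured on both sides, while OYE3 (7.79) and SRX1 (6.04) have both group means above the line. YOL131W (−2.06) has an H2O2 mean of 5.21, just above the line, but most of its H2O2 arrays lie under it.

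Most enzymes that remove peroxide rose. Of 12 measured scavenger genes 9 were called higher and none lower, with a median difference of 0.49, where 9.23% of all probe sets were called higher. With the ribosomal RNA signal as a covariate 2 were called lower, DOT5 (−0.27) and HYR1 (−0.19). SRX1 (YKL086W) makes sulfiredoxin, which repairs peroxiredoxins that peroxide has overoxidised. Its signal was 15.52, 15.54, 15.66 and 15.68 on the H2O2 arrays, against 9.51, 9.77, 9.50 and 9.48 on the control arrays. The groups lie far apart, a difference of 6.04 ± 0.09 or 65.6-fold (adjusted p = 1.67e-14), and control replicate 2 was the highest control. GPX2, a glutathione peroxidase-like enzyme, read 15.23, 15.25, 15.37 and 14.84 in H2O2, against 11.57, 11.78, 11.64 and 11.58 in control, an 11.5-fold rise (3.53 ± 0.11, adjusted p = 5.3e-11). TSA2, the scarcer of the paired cytosolic peroxiredoxins, read 14.47 to 14.49 on all 4 H2O2 arrays, against 12.32, 12.39, 11.97 and 12.22 in control, a 4.78-fold rise (2.26 ± 0.08).

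Both catalases rose. CTA1, the peroxisomal catalase, read 14.46, 14.56, 14.58 and 14.11 in H2O2, against 12.47, 12.82, 13.05 and 12.52 in control (1.71 ± 0.20, adjusted p = 4.07e-05). CTT1, the cytosolic catalase, read 13.57, 13.79, 13.52 and 13.20 in H2O2, against 12.91, 13.21, 12.94 and 12.83 in control. This rise was smaller (0.55 ± 0.11, adjusted p = 0.00451), and H2O2 replicate 4 lay just under control replicate 2. CCP1, the cytochrome c peroxidase of mitochondria, rose by 0.89 ± 0.04, with 15.55 to 15.66 in H2O2 and 14.61 to 14.76 in control.

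The abundant peroxiredoxins rose by less than 1.4-fold but without overlap between the groups. TSA1, the main cytosolic enzyme, read 15.63 to 15.68 in H2O2 and 15.33 to 15.37 in control (0.31 ± 0.03, adjusted p = 5.12e-06). AHP1, an alkyl hydroperoxide reductase, rose by 0.35 ± 0.04, and PRX1, the mitochondrial peroxiredoxin, by 0.44 ± 0.07. TSA1 and AHP1 lie near the top of the scale, whose highest value in the deposited matrix is 16.28, and compression of their differences there was not tested. The 3 scavengers that were not called were DOT5, the nuclear peroxiredoxin, at −0.19, and the glutathione peroxidase-like GPX1 at −0.16 and HYR1 at −0.10.

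Superoxide genes rose together, while the thioredoxin genes divided into called and not called. All 3 superoxide genes rose: SOD1, the cytosolic superoxide dismutase, by 0.40 ± 0.04, SOD2, the mitochondrial one, by 0.79 ± 0.07, and CCS1, the copper chaperone that loads Sod1, by 1.30 ± 0.08. CCS1 read 14.30, 14.31, 14.29 and 14.01 in H2O2, against 12.88, 12.96, 12.86 and 13.00 in control. Of 5 thioredoxin genes 2 were called, both cytosolic. TRR1, the thioredoxin reductase, read 15.28, 15.37, 15.03 and 14.96 in H2O2 and 13.92, 13.94, 13.86 and 13.94 in control, a 2.37-fold rise (1.24 ± 0.09), while its mitochondrial counterpart TRR2 read 12.60 to 12.69 in H2O2 and 12.62 to 12.64 in control. TRX2 rose by 0.29 ± 0.03, while TRX1, the other cytosolic thioredoxin, read 14.67 to 14.84 in H2O2 and 14.68 to 14.80 in control and was not called.

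Glutathione genes rose at the entry and exit of the pathway. Of 12 genes for its synthesis and turnover 4 were called higher and 1 lower, where 9.23% of all probe sets were called higher and 10.6% lower. GSH1, which makes gamma-glutamylcysteine, the rate-limiting step, read 14.52, 14.52, 14.30 and 14.41 in H2O2, against 13.16, 13.00, 12.89 and 13.24 in control (1.36 ± 0.08, adjusted p = 2.23e-08). GSH2, the second synthetase, rose by 0.66 ± 0.08, GLR1, the glutathione reductase, by 0.46 ± 0.04, and YCF1, which pumps glutathione conjugates into the vacuole, by 1.04 ± 0.06. Of 9 glutathione transferase genes 3 rose and none fell: GTT2 by 2.94 ± 0.07, ECM4 by 1.98 ± 0.09 and GTO3 by 1.47 ± 0.39. GTT2 read 14.05, 14.22, 14.23 and 14.01 in H2O2, against 11.14, 11.06, 11.19 and 11.35 in control. GTO3 varied more between arrays, at 11.32, 10.89, 11.77 and 11.74 in H2O2 and 10, 9.22, 10.40 and 10.24 in control, and its call was lost without H2O2 replicate 4 (1.36, adjusted p = 0.0531) or without control replicate 2 (1.22, adjusted p = 0.0617). Of 8 glutaredoxins 1 was called higher, GRX2 at 0.34 ± 0.06, and 2 lower, where 9.23% of all probe sets were called higher and 10.6% lower. The 2 became 0 without H2O2 replicate 4 or control replicate 2.

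**Figure D2:**
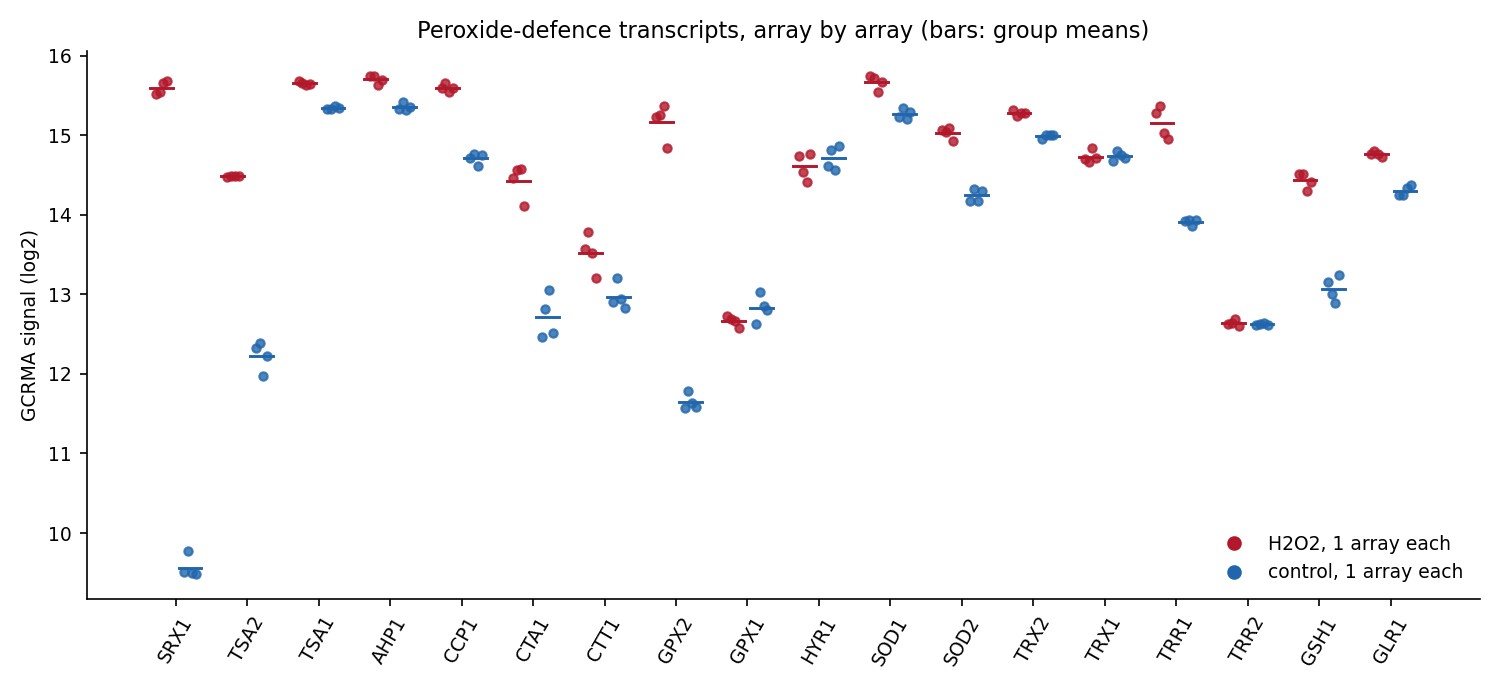
The log2 signal of 18 peroxide-defence genes on each of the 4 H2O2 arrays (red, left of each pair) and 4 control arrays (blue, right), with bars at the group means; the y axis does not start at 0. SRX1, TSA2 and GPX2 stand clear of control by 6.04, 2.26 and 3.53, while GPX1, HYR1, TRX1 and TRR2 overlap.

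The listed targets of Yap1 rose almost without exception. Because the list was chosen with earlier results of these data known, its count only describes its members. Of 27 measured targets 25 were called higher and none lower, where 9.23% of all probe sets were called higher, and their median difference was 1.36. The rise was not particular to H2O2. Against control, acrolein had 22 of these targets higher and 1 lower (median 1.55), and NEM 25 higher and 2 lower (median 1.82). The targets include SRX1, GPX2, TRR1, GSH1 and several other genes above, and the 2 targets not called were MCR1, a mitochondrial cytochrome b5 reductase (−0.18 ± 0.09), and ZWF1, which makes the glucose-6-phosphate dehydrogenase that feeds NADPH to both reducing systems. ZWF1 read 14.80, 14.71, 14.58 and 15.01 in H2O2, against 14.57, 14.32, 14.47 and 14.54 in control, so the groups did not overlap, but the difference of 0.30 ± 0.12 had an adjusted p of 0.105.

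Among the sensors and regulators themselves few transcripts changed. Of 21 genes of peroxide sensing and signalling 5 were called, all higher, and the median was 0.09. YAP1 itself read 13.58, 13.42, 13.18 and 13.45 in H2O2, against 12.44, 12.39, 12.60 and 12.74 in control, a 1.82-fold rise (0.86 ± 0.16, adjusted p = 0.00169). The larger rises were in other bZIP factors of its family. YAP7, a repressor of the family, read 11.57, 11.72, 11.68 and 11.38 in H2O2, against 9.76, 9.31, 9.63 and 9.52 in control (2.04 ± 0.12, adjusted p = 4.19e-08). CIN5, known for its part in salt tolerance, read 13.03, 13.21, 13.05 and 12.98 in H2O2, against 11.10, 11.34, 11.22 and 10.87 in control (1.94 ± 0.19, adjusted p = 6.54e-06). RPN4, the activator of proteasome genes, rose by 0.29 ± 0.04, and CAD1, the nearest relative of YAP1, by 0.27 ± 0.07, a call that was lost without H2O2 replicate 4 (0.23, adjusted p = 0.0501). HYR1 and YBP1 (−0.09 ± 0.06), the partners in Yap1 activation, were not called, nor was SKN7, the second peroxide-responsive factor (−0.15 ± 0.10). The general stress factors MSN2 (0.11 ± 0.05) and MSN4 (0.15 ± 0.12) were not called either.

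Oxidoreductases and drug transporters gave several of the largest rises. OYE3, an old yellow enzyme that reduces carbon double bonds beside a carbonyl, read 14.55, 14.75, 14.61 and 14.42 in H2O2, against 7.28, 6.25, 6.67 and 6.96 in control, a 222-fold rise (7.79 ± 0.16, adjusted p = 6.1e-13). Its relative OYE2 rose by 0.48 ± 0.05. Of 15 flavin and quinone oxidoreductases 7 rose and none fell, among them YLR460C (3.65 ± 0.20) and YCR102C (3.39 ± 0.12), 2 quinone oxidoreductase-like genes. FRM2, which resembles bacterial nitroreductases, lay at 1.93 to 2.04 in control, under the background level, and at 6.75, 7.70, 6.51 and 6.20 in H2O2, at least 3.12-fold higher, while its relative HBN1 rose by 1.38 ± 0.07. Of 20 NADPH-dependent and aldo-keto oxidoreductases 9 rose and 2 fell, where 9.23% of all probe sets were called higher and 10.6% lower. The rises were led by GRE2, a methylglyoxal reductase, at 2.06 ± 0.09, YNL134C at 1.78 ± 0.06 and ADH6, an NADPH-dependent alcohol dehydrogenase, at 0.88 ± 0.05. Of the 5 aryl-alcohol dehydrogenase genes measured, AAD6 (2.36 ± 0.19), AAD4 (1.64 ± 0.07) and AAD3 (1.35 ± 0.11) rose. The probe sets of AAD3 and AAD4 match more than 1 transcript, so their signals cannot be assigned to 1 copy.

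YHK8, a presumed antiporter, had a strong signal in H2O2 and none above background in control. It read 12.29, 12.72, 12.27 and 12.59 in H2O2, against 4.06, 4.31, 4.42 and 4.49 in control, all under the background level, so it was at least 160-fold higher (fitted difference 8.15 ± 0.12, adjusted p = 1.65e-14). ATR1, a multidrug efflux pump, read 12.52, 12.73, 12.55 and 12.34 in H2O2, against 8.77, 8.48, 8.67 and 9.26 in control (3.74 ± 0.14). FLR1, another efflux pump and a Yap1 target, rose by 1.16 ± 0.07. Of 25 multidrug transporters and their helpers 10 rose and none fell, with a median of 0.12. Of 16 hexose transporters 5 rose and 2 fell, where 9.23% of all probe sets were called higher and 10.6% lower. HXT9, which has been tied to drug resistance, read 9.28, 10.08, 9.01 and 9.05 in H2O2, against 5.33, 5.33, 5.60 and 5.33 in control. HXT11 rose by 1.34 ± 0.25. HXT9 and HXT11 are near-identical in sequence and the HXT9 probe set matches more than 1 transcript, so signal from 1 may be counted for the other.

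Transcripts for making NADPH rose at the 6-phosphogluconate step. The list of the pentose phosphate pathway and NADPH supply has 19 measured genes, of which 6 rose and none fell. GND1, the main 6-phosphogluconate dehydrogenase, read 14.85, 14.72, 14.67 and 14.92 in H2O2 and 13.92, 13.94, 13.89 and 13.91 in control (0.88 ± 0.04, adjusted p = 7.42e-09). GND2, its minor copy, read 11.36, 10.73, 10.90 and 11.10 in H2O2, against 8.69, 8.88, 8.92 and 8.97 in control (2.16 ± 0.14). SOL3, a 6-phosphogluconolactonase, rose by 0.50 ± 0.05, and YEF1, a kinase that makes NADP from NAD, by 1.14 ± 0.20. DAK2, a dihydroxyacetone kinase, read 9.15, 9.74, 9.21 and 10.15 in H2O2, against 3.55, 3.55, 4.48 and 3.64 in control. All control values were background, so DAK2 was at least 21.3-fold higher. Its partner DAK1 read 14.34 to 14.42 in H2O2 and 14.31 to 14.43 in control (−0.01 ± 0.05, 95% interval −0.12 to 0.09). Of the 12 genes of dihydroxyacetone and glycerol metabolism 3 rose and 3 fell, where 9.23% of all probe sets were called higher and 10.6% lower. Only 1 fell once probe sets with a mean under 6 were left out. STL1, the glycerol symporter, was among those that fell (−1.51 ± 0.30), with an H2O2 mean of 5.05, under the background level.

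Transcripts for iron-sulfur cluster assembly in the cytosol rose along most of the pathway. Of 11 genes 7 were called higher and 1 lower, with a median of 0.98. The electron chain that starts the pathway is made by TAH18, a flavoprotein that draws electrons from NADPH, and DRE2, its partner. TAH18 read 11.21, 11.23, 11.29 and 10.89 in H2O2, against 8.35, 8.26, 8.91 and 8.19 in control (2.73 ± 0.15, adjusted p = 1.36e-08). DRE2 read 14.34, 14.38, 14.31 and 14.24 in H2O2, against 13.18, 13.22, 13.22 and 13.23 in control (1.11 ± 0.05). TAH18 is counted among the Yap1 targets as well, so its rise stands in both lists. The scaffold proteins CFD1 (1.07 ± 0.08) and NBP35 (0.98 ± 0.08), on which the clusters form, and NAR1 (1.43 ± 0.13) and CIA2 (0.69 ± 0.08), which carry them to their targets, rose too. LTO1, an adaptor for the cluster protein of ribosome recycling, rose by 1.53 ± 0.11, while YAE1, with which it works, fell by 0.32 on the log2 scale (SE 0.07, adjusted p = 0.00787).

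In mitochondria 7 of 18 iron-sulfur genes rose (11 with array weights) and 1 fell, with a median of 0.17. ISU2, an assembly scaffold, read 14.89, 14.91, 14.89 and 14.88 in H2O2, against 13.25, 12.98, 13.03 and 13.18 in control (1.78 ± 0.06, adjusted p = 7.08e-11). ISU1, the main scaffold, read 15.39 to 15.49 in H2O2 and 15.22 to 15.30 in control and was not called (0.18 ± 0.08, adjusted p = 0.11). IBA57, needed for the clusters of aconitase-type enzymes, rose by 1.58 ± 0.07.

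Iron uptake genes rose modestly and in number. Of 29 measured genes of the iron regulon 14 were called higher and 1 lower, with a median of 0.27. LSO1, a small protein that responds to iron, read 6.64, 6.84, 5.22 and 6.32 in H2O2, against 2.70, 2.59, 2.19 and 3.36 in control, at least 2.16-fold higher since control was background. AFT2, an iron-sensing activator, read 11.70, 11.99, 11.58 and 11.86 in H2O2, against 10.47, 10.27, 10.24 and 10.35 in control (1.45 ± 0.13, adjusted p = 2.52e-06). AFT1, the main iron activator, looked up after the values were seen, read 11.99 to 12.25 in H2O2 and 12.02 to 12.26 in control (−0.02 ± 0.08). FRE1, a cell-surface metalloreductase, rose by 1.21 ± 0.10, CCC2, which delivers copper to the iron oxidase, by 0.94 ± 0.16, and HMX1, the heme oxygenase, by 0.78 ± 0.16.

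Heme and cytochrome genes moved in both directions. CYC1, the main cytochrome c, read 15.02, 15.21, 15.08 and 15.05 in H2O2, against 12.05, 12.25, 12.14 and 12.22 in control, a 7.60-fold rise (2.93 ± 0.05, adjusted p = 7.45e-14). CYC7, the minor, hypoxic form, read 13.78, 13.73, 13.76 and 13.45 in H2O2 and 14.09, 14.29, 14.09 and 13.89 in control. It fell by 0.41 (SE 0.12), a call that was lost without H2O2 replicate 4 (−0.34, adjusted p = 0.0701) or control replicate 2 (−0.35, adjusted p = 0.0734). The lyases that attach heme rose, CYT2, which serves cytochrome c1, by 1.81 ± 0.09 and CYC3, which serves cytochrome c, by 0.45 ± 0.09. The last enzymes of heme synthesis fell, HEM14, protoporphyrinogen oxidase, by 0.78 and HEM15, ferrochelatase, by 0.30. In the whole heme list of 11 genes 1 rose and 3 fell, where 9.23% of all probe sets were called higher and 10.6% lower. CYC1 rose while the respiratory chain did not: of 35 subunits of the chain and ATP synthase 1 was called higher and 10 lower, with a median of −0.17. COX5B, a hypoxic subunit of cytochrome oxidase, read 14.10, 14.06, 14.02 and 13.90 in H2O2 and 14.65, 14.68, 14.55 and 14.58 in control (−0.59 ± 0.05). The count of 10 fell to 6 without H2O2 replicate 2 or without control replicate 2. In the TCA cycle 1 of 21 genes rose and 6 fell, led by SDH2, the iron-sulfur subunit of succinate dehydrogenase (−0.55 ± 0.11).

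Amino acid pathways parted. Of 9 lysine genes 6 were called higher and none lower, with a median of 0.34. LYS20, the homocitrate synthase that opens the pathway, read 14.46, 14.65, 14.49 and 14.19 in H2O2, against 12.19, 12.16, 12.27 and 11.96 in control (2.30 ± 0.13, 4.93-fold, adjusted p = 3.07e-08). LYS2 (0.70 ± 0.04), the aminoadipate reductase, LYS1 (0.68 ± 0.08), which makes lysine in the last step, and LYS12 (0.45 ± 0.11), homoisocitrate dehydrogenase, rose as well. LYS21, the second homocitrate synthase, rose by only 0.34 ± 0.11, and its call did not hold without H2O2 replicate 1, 2 or 4 or control replicate 2, 3 or 4 (0.28 to 0.35, adjusted p 0.0734 to 0.129). Of 11 branched-chain genes none was called higher and 4 lower, with a median of −0.20. ILV5, the acetohydroxyacid reductoisomerase, fell by 0.81 (12.70 to 12.98 in H2O2, 13.53 to 13.79 in control), BAT1, the mitochondrial aminotransferase, by 0.69, and LEU1, an iron-sulfur enzyme of leucine synthesis, by 0.57. The largest rise in the aromatic pathway was ARO2, chorismate synthase, at 1.41 ± 0.09.

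**Figure D3:**
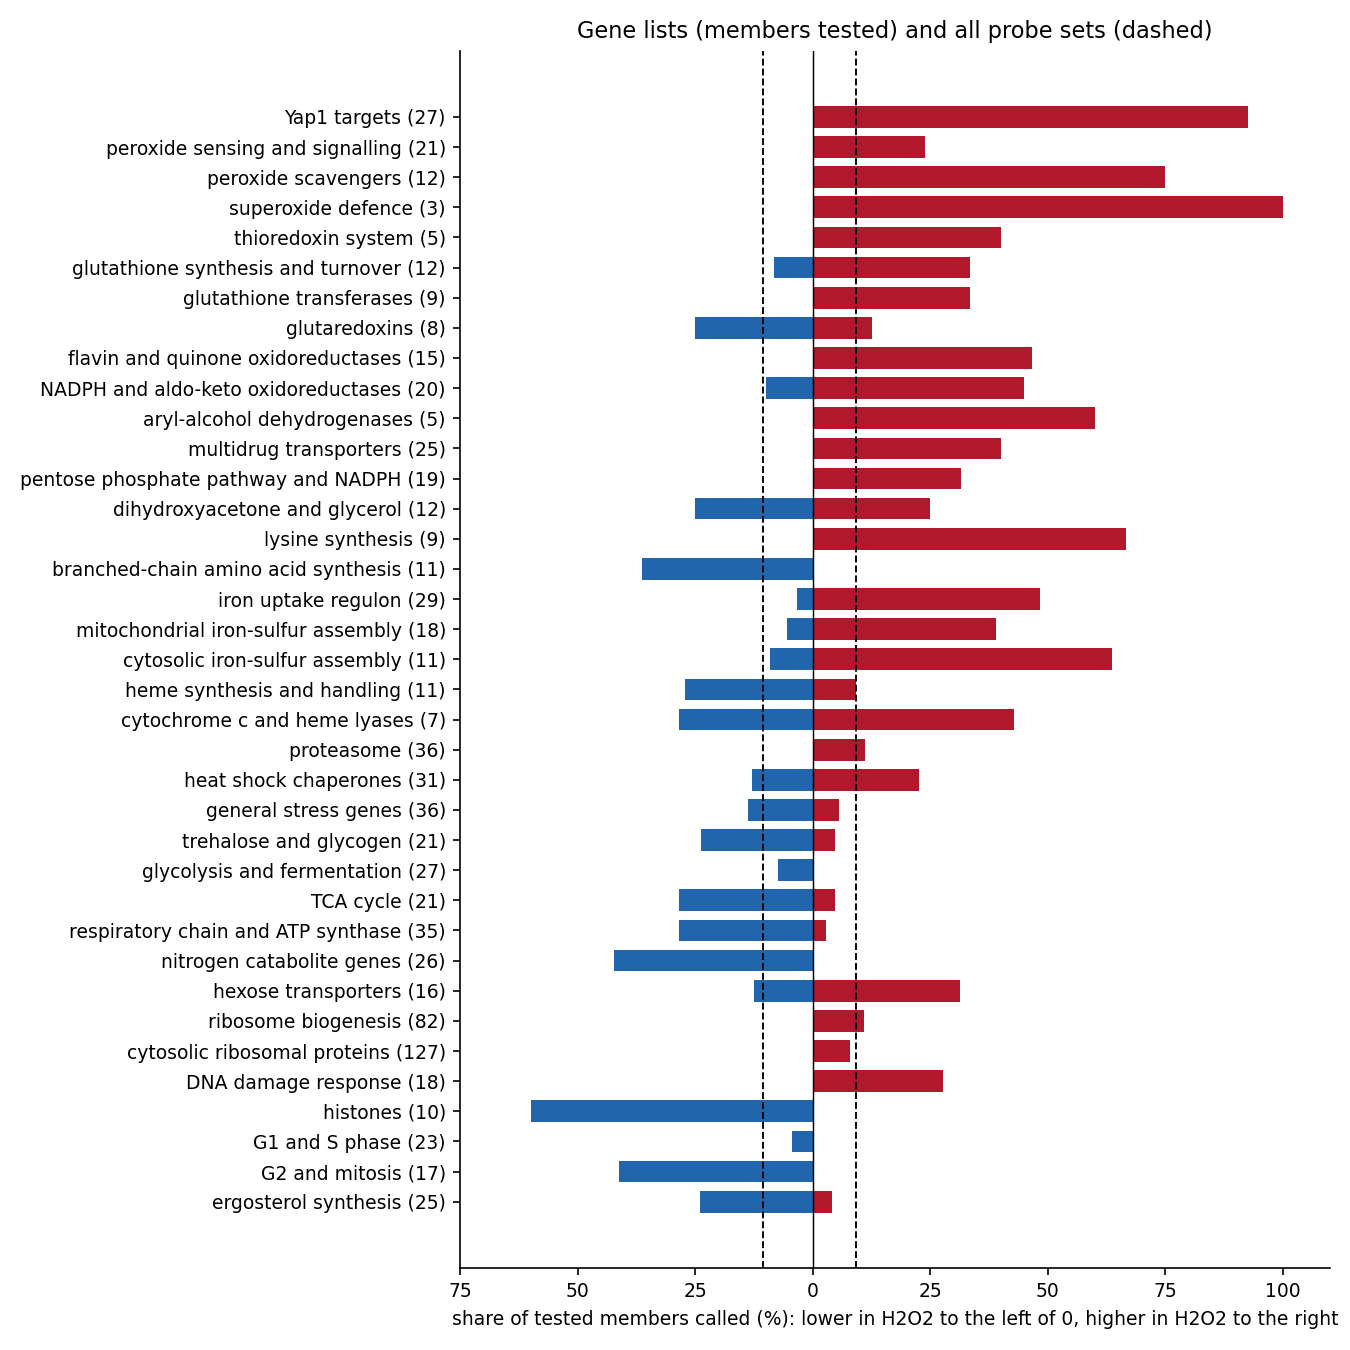
For each of the 37 gene lists described, the percentage of its tested members (number in brackets) that were called higher in H2O2 (red, right of 0) or lower (blue, left of 0); dashed lines mark the same percentages over all 5785 probe sets, 9.23 higher and 10.6 lower. The defence, iron-sulfur and lysine lists reach far to the right, and histones and nitrogen catabolite genes reach to the left. Proteasome genes have no bar on the left and glycolytic genes none on the right.

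Programmes often tied to stress had few calls or calls in both directions at 1 h. Of 36 general stress genes 2 rose and 5 fell, with a median of −0.09, against 9.23% higher and 10.6% lower over all probe sets. HSP12, a membrane-protecting stress protein looked up after the values were seen, read 15.82 to 15.85 in H2O2 and 15.94 to 16.02 in control (−0.15 ± 0.09, adjusted p = 0.31). Of 21 trehalose and glycogen genes 1 rose and 5 fell, but the 5 became 2 without H2O2 replicate 4, 4 without H2O2 replicate 2, and 3 without any other single array or with the 8 arrays fitted alone. Of 27 glycolytic and fermentation genes none rose and 2 fell, with a median of −0.01. Of 36 proteasome genes 4 rose and none fell, with a median of 0.06, and 2 rose without H2O2 replicate 2. Heat shock chaperones went both ways, 7 of 31 higher and 4 lower, and the 4 became 1 without H2O2 replicate 2 or 4 or control replicate 1, 3 or 4, and 2 without control replicate 2. The 4 also became 2 with the 8 arrays fitted alone and 1 with dim probe sets left out or a floor of 4. HSP31, which breaks down methylglyoxal, rose by 1.93 ± 0.07, HSP30 of the plasma membrane by 1.13 ± 0.06 and YDJ1, a cytosolic Hsp40, by 0.76 ± 0.07, while HSP26, a small chaperone, read 14.22 to 14.41 in H2O2 and 15.06 to 15.24 in control (−0.82 ± 0.05).

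Ribosome genes had mostly small positive differences, and histone and mitotic genes negative ones. Of 82 ribosome biogenesis genes 78 had a positive difference, with a median of 0.32, but only 9 were called higher, and none lower, where 9.23% of all probe sets were called higher. The 9 became 5 without H2O2 replicate 2, control replicate 2 or control replicate 4, 14 with array weights or with the 8 arrays fitted alone, and 37 with the ribosomal RNA signal as a covariate. RPF2, which helps build the large subunit, led with 8.47, 9.0, 9.20 and 8.65 in H2O2 and 7.99, 7.65, 7.85 and 7.75 in control (1.02 ± 0.24, adjusted p = 0.00948). Of 127 cytosolic ribosomal protein genes 10 were called higher and none lower, with a median of 0.09, where 9.23% of all probe sets were called higher. The 10 became 4 or 5 without H2O2 replicate 2 or 3 or control replicate 2 or 4, 6 with median centring, 20 with array weights and 47 with the covariate. All 10 histone genes measured had a negative difference and 6 were called lower, led by HTB2 of histone H2B (−0.44 ± 0.06). All 17 genes of G2 and mitosis had a negative difference and 7 were called lower, or 4 without control replicate 4 and 12 with the covariate. They include SWI5, a late-mitotic activator (−0.54 ± 0.07), and MYO1, the myosin of the division ring (−0.55 ± 0.10). Of 23 genes of G1 and S phase 1 was called, lower, where 10.6% of all probe sets were called lower. Of 18 DNA damage genes 5 were called higher and none lower, or 2 without H2O2 replicate 2 or 4 or control replicate 2 or 3. RNR1, the large subunit of ribonucleotide reductase, rose by 0.81 ± 0.15.

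Many nitrogen catabolite genes and some sterol genes were called lower. Of 26 nitrogen catabolite genes none rose and 11 fell, with a median of −0.27. DAL1, allantoinase, read 2.36, 2.35, 2.35 and 2.35 in H2O2, under the background level, and 5.24, 7.12, 4.98 and 5.59 in control, at least 1.5-fold lower. Other large decreases included YOL131W (−2.06 ± 0.24), FDH1, formate dehydrogenase (−1.84 ± 0.32), and PCK1, the first enzyme of gluconeogenesis (−1.41 ± 0.25). STL1, OSW2 and some genes not described here also fell by more than PCK1. FDH1 read 10.01, 9.82, 10.32 and 9.23 in H2O2, against 11.79, 11.49, 12.26 and 11.21 in control. Of 25 ergosterol genes 1 rose and 6 fell, with a median of −0.04, where 9.23% of all probe sets were called higher and 10.6% lower. Those that fell include both sterol-sensing activators, UPC2, with 7.43, 7.49, 7.69 and 6.72 in H2O2 and 8.42, 8.45, 8.67 and 8.00 in control (−1.05 ± 0.23), and ECM22 (−0.57 ± 0.07), and the squalene epoxidase gene ERG1 (−0.58 ± 0.09).

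Related genes were compared within 22 pairs chosen with earlier results of these data known. Their counts therefore say nothing of related genes in general. Their p-values describe the chosen pairs and are not independent evidence that the members differ. For each pair the log2 ratio of both genes was compared between the H2O2 and the control arrays by a two-sided exact permutation test. In 17 pairs the exact test gave p = 0.0286, the smallest that 4 arrays against 4 allow, and an adjusted p of 0.037 over the 22 pairs. The change of OYE3 exceeded that of OYE2 by 7.32 ± 0.19, and GPX2 that of GPX1 by 3.69 ± 0.10 and of HYR1 by 3.63 ± 0.20. CYC1 exceeded CYC7 by 3.34 ± 0.12, LYS20 exceeded LYS21 by 1.97 ± 0.12, TSA2 exceeded TSA1 by 1.95 ± 0.10 and ISU2 exceeded ISU1 by 1.6 ± 0.06. GND2 exceeded GND1 by 1.28 ± 0.12, TRR1 exceeded TRR2 by 1.23 ± 0.10 and CTA1 exceeded CTT1 by 1.16 ± 0.14. In the pairs of DAK2 with DAK1 and of FRM2 with HBN1 the control values of the first gene were background, so no size is given. In the lactonase pair SOL4 and SOL3 the second gene rose more (−0.45 ± 0.08). In 5 pairs the test was not passed. YLR460C and YCR102C differed by 0.26 ± 0.15 (adjusted exact p = 0.21), but by 0.52 after quantile normalization (adjusted exact p = 0.0349), which makes 18 pairs past the test. The ribonucleotide reductase genes RNR3 and RNR1 differed by −0.01 ± 0.32 (adjusted exact p = 0.971). The others were TKL2 with TKL1 (0.56 ± 0.45), NQM1 with TAL1 (−0.15 ± 0.12) and TPO4 with TPO1 (−0.05 ± 0.14).

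**Figure D4:**
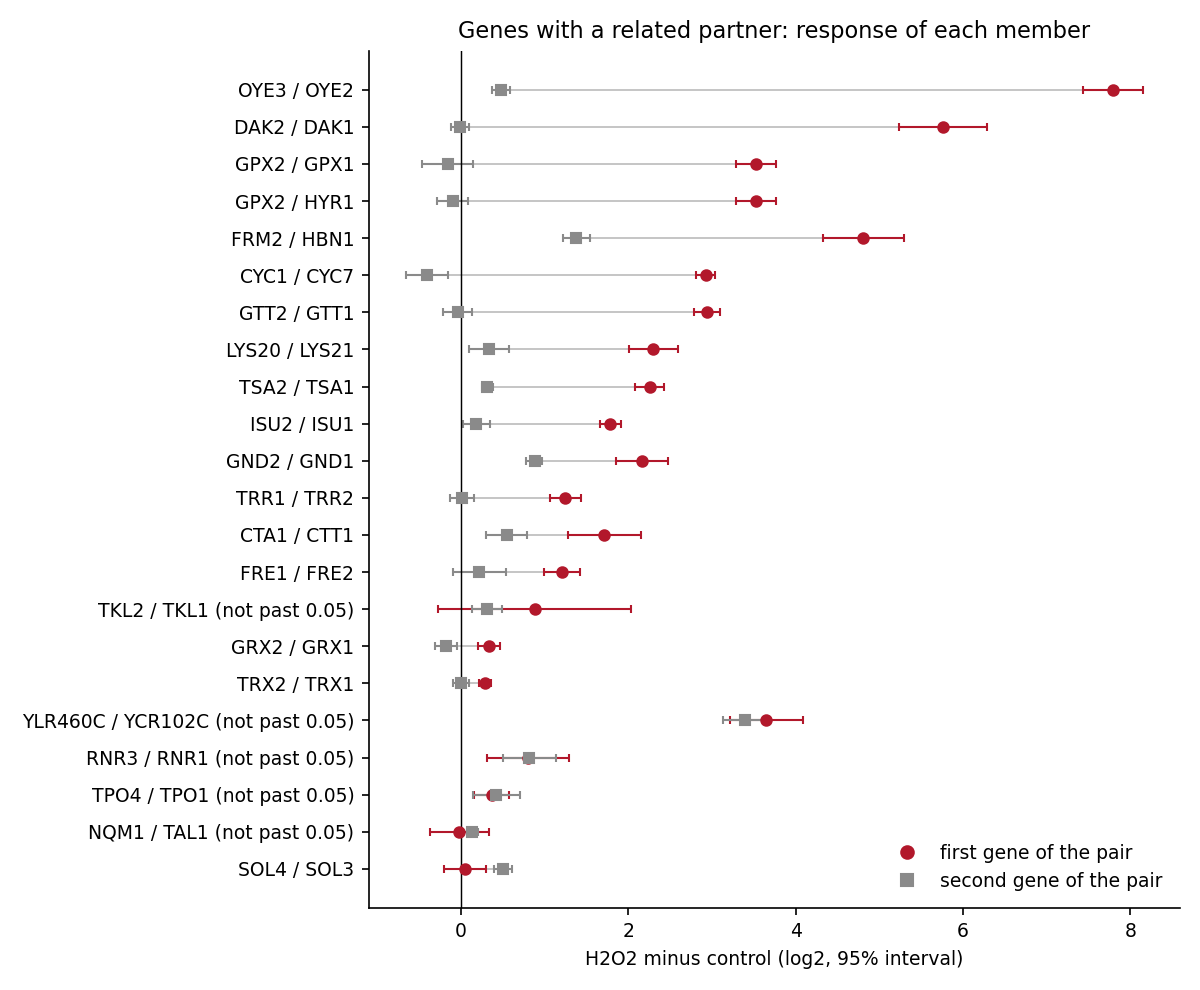
The H2O2 minus control difference (log2, with its 95% interval) of each gene in 22 pairs of related genes, the first gene as a red circle and the second as a grey square, ordered by how far the first exceeds the second. OYE3 and OYE2 lie 7.32 apart at the top, and pairs marked as not past 0.05 include RNR3 and RNR1, whose symbols nearly coincide. The values of DAK2 and FRM2 rest on control arrays in the background.

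Some of these changes set H2O2 apart from acrolein and NEM. A gene was counted as specific when it was called in 1 direction against control, against acrolein and against NEM. That held for 225 probe sets (3.89%), 111 on the higher side (1.92% of those tested) and 114 on the lower side (1.97%). The comparisons of this rule all share the same H2O2 arrays, so they are not independent. Those of each treatment with control share the control arrays, so the values of each are given side by side. In the scavenger list 8 of 12 genes were specific, all higher in H2O2. SRX1 stood 3.44 ± 0.09 above acrolein and 2.92 ± 0.09 above NEM, although it rose in both (2.59 and 3.12 against control). TSA2 rose by 2.26 against control with H2O2, against −0.24 with acrolein and 0.55 with NEM. The catalases showed opposite signs: CTA1 differed from control by 1.71 in H2O2, −0.31 in acrolein and −1.11 in NEM. Its acrolein difference was not called (adjusted p = 0.192). CTT1 differed from control by 0.55 in H2O2, −0.99 in acrolein and −1.64 in NEM.

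The iron regulon held 10 specific genes of 29 and the lysine list 5 of 9. HMX1 differed from control by 0.78 in H2O2, −3.11 in acrolein and −2.82 in NEM, CCC2 by 0.94, −1.39 and −0.42 in that order, and FRE1 by 1.21, −0.08 and 0.40. LYS20 exceeded acrolein by 1.85 ± 0.13 and NEM by 1.42 ± 0.13. LYS12 was specific too, but not without H2O2 replicate 3, where its difference from acrolein was 0.26 (adjusted p = 0.0647). In the pentose phosphate list 5 of 19 genes were specific, and GND1 stood 0.72 ± 0.04 above acrolein and 0.71 ± 0.04 above NEM. CYC1 stood 2.54 ± 0.05 above acrolein (adjusted p = 1.44e-12) and 3.20 ± 0.05 above NEM (adjusted p = 7e-14). DAK2 was above background on the H2O2 arrays alone, with means of 3.07 in acrolein, 2.72 in NEM and 3.80 in control. CIN5 differed from control by 1.94 in H2O2, 0.02 in acrolein and −2.92 in NEM.

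Further specific increases were PEX21, a peroxisomal import factor (2.31 in H2O2, 0.73 in acrolein, −0.07 in NEM), and SMK1, a kinase of spore formation. SMK1 read 5.58, 6.20, 5.18 and 4.39 in H2O2, close to the background level, and 2.62 to 2.68 in control, so that it was at least 1.14-fold higher. YLR154C-H, a small open reading frame inside the ribosomal DNA repeat, read 10.31, 9.27, 8.01 and 10.17 in H2O2, against 5.87, 7.34, 6.86 and 4.61 in control (3.27 ± 0.91). Its probe set matches more than 1 transcript, the 2 H2O2 arrays with the highest values have the lowest ribosomal RNA signal (7.80 and 4.38), the control array with the lowest ribosomal RNA signal (8.75) has the lowest control value (4.61), and its call was lost without H2O2 replicate 1 (2.98, adjusted p = 0.0602), H2O2 replicate 4 (3.02, adjusted p = 0.0627) or control replicate 4 (2.75, adjusted p = 0.0704). With the ribosomal RNA signal as a covariate the difference was 3.37 (adjusted p = 0.0271).

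On the lower side PCK1 differed from control by −1.41 in H2O2, 1.08 in acrolein and 1.59 in NEM. It read 11.89, 11.03, 11.68 and 11.19 in H2O2, against 12.39, 13.28, 12.98 and 12.76 in control. IRC10 (−1.31 in H2O2, 0.81 in acrolein, 0.46 in NEM) and DIA1 (−0.96, 0.52 and 0.43) also had opposite signs, while UPC2 moved less in the other treatments (−0.19 in acrolein and −0.31 in NEM). HEM14 differed from acrolein by −0.51 ± 0.07 and from NEM by −1.17 ± 0.07. OSW2, a gene of the outer spore wall, differed from control by −1.47 in H2O2, −1.17 in acrolein and −0.81 in NEM, and its difference from acrolein was no longer called without H2O2 replicate 2 (−0.22, adjusted p = 0.0628) or H2O2 replicate 4 (−0.24, adjusted p = 0.065).

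Several large H2O2 responses were not specific. OYE3 rose by 7.79 in H2O2, 8.68 in acrolein and 8.81 in NEM. YHK8 averaged 12.47 in H2O2, 12.81 in acrolein and 12.63 in NEM, all against a control in the background. The response to H2O2 was the smaller one in FRM2, whose H2O2 minus acrolein difference was −4.92 ± 0.22 and H2O2 minus NEM difference −5.73 ± 0.22. The same differences were −2.03 ± 0.15 and −1.22 ± 0.15 for TAH18 and −1.43 ± 0.14 and −1.11 ± 0.14 for ATR1. None of the 11 genes of cytosolic iron-sulfur assembly was specific to H2O2, and the list's median difference from control was 0.98 in H2O2, 1.37 in acrolein and 1.38 in NEM. The general stress list had a median of −0.09 in H2O2, −0.53 in acrolein and −0.38 in NEM. The ribosome biogenesis list had 0.32, 1.27 and 0.82 in that order, with 9, 79 and 67 of its 82 genes called higher.

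**Figure D5:**
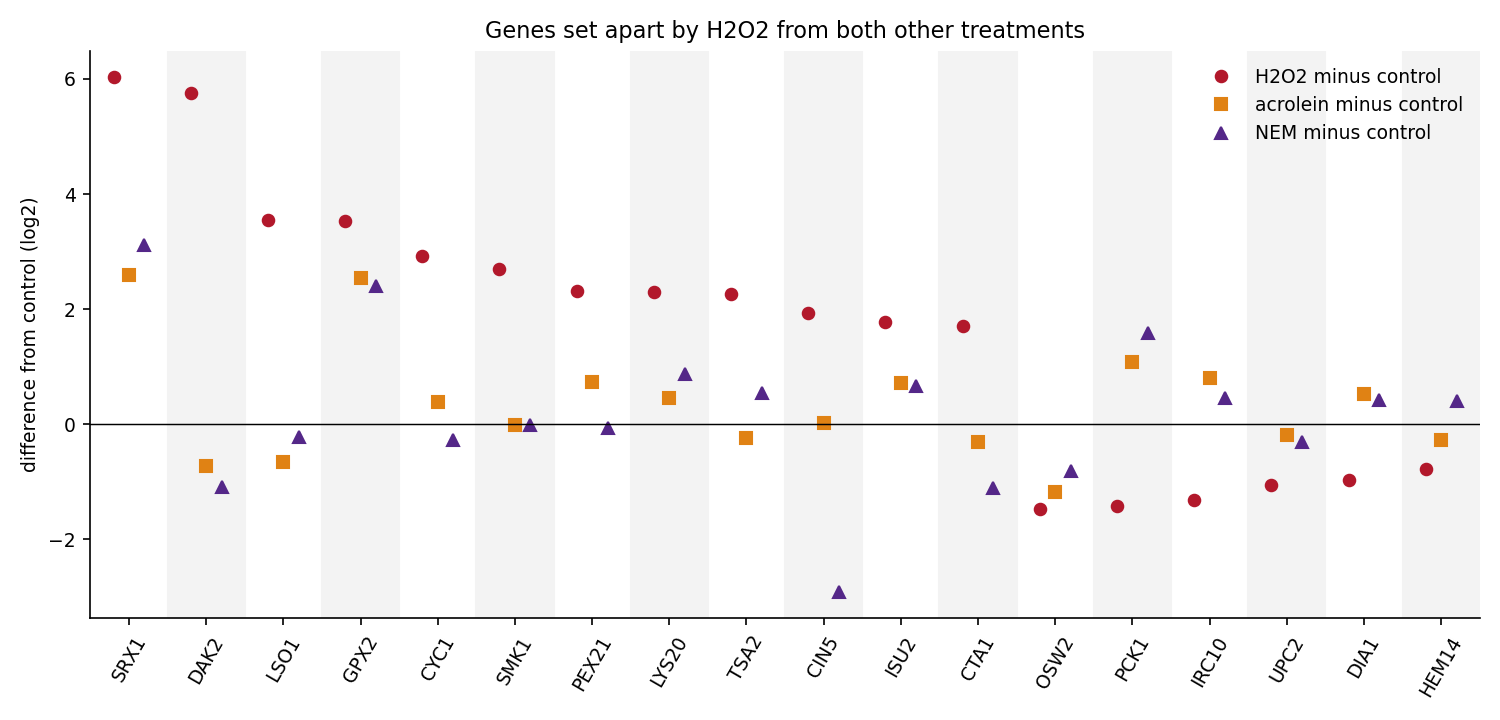
Differences from control (log2) of 18 genes specific to H2O2, for H2O2 (red circles), acrolein (orange squares) and NEM (purple triangles), all against the same 4 control arrays. In the 12 genes on the left H2O2 lies above both other treatments, as for CYC1 at 2.93 against 0.39 and −0.27, and in the 6 on the right below both, as for PCK1 at −1.41 against 1.08 and 1.59. For DAK2, LSO1 and SMK1 the acrolein, NEM and control arrays all lie in the background.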

How the data were processed

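RNA (8 µg per array, per the labels' protocols) was labelled with biotin and hybridised to Affymetrix Yeast Genome 2.0 arrays. The authors deposited GCRMA log2 signals, per the submitters' processing notes and the values themselves. No version of GCRMA is named in these sources. Values were used as deposited, with array medians of 11.85 to 11.92. Of 10928 probe sets, 166 controls, 1746 for another yeast species and 1 whose annotation names several genes were left out. Names came from the platform annotation and the RefSeq table of assembly R64, with 12 symbols updated. Of several probe sets per gene the brightest by mean over all arrays was kept (49 dropped), and constant probe sets were left out, which left 5404 genes and 381 probe sets without a gene name.

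A single model over the 16 arrays, with 4 group means, was fitted in limma 3.58.1 (run in R 4.3.3; 12 residual degrees of freedom, prior degrees of freedom 1.15, prior SD 0.0729), two-sided, with Benjamini-Hochberg adjustment over 5785 probe sets. The median standard error of a difference was 0.086, and the number of arrays limits the precision. The script was tested on simulated data. Where no array of a group exceeded 5.15, the fold is a bound against that level, taken with the other group's mean. Pairs and RNA quality were compared by exact permutation tests (Python 3.11.15, numpy 2.4.6, pandas 2.3.3, scipy 1.17.1, matplotlib 3.10.9).

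The 58 gene lists, 22 pairs, background level and naming rule were chosen with earlier results of these data known, and lists were given no test. The rule names the 15 largest called increases and the 15 largest called decreases without overlap, up to 4 called members per list, every member of lists of up to 15, all Yap1 targets and sensors, all genes of pairs, up to 8 specific genes per direction, and the strain's disrupted genes with ACT1. A selection is described, with AFT1 and HSP12 added after their values were seen. Alternatives were 8 arrays alone, a replicate block, weighted arrays, a trended prior made robust, centring on medians or quantile normalization, removal of probe sets with a mean under 6, a floor of 4, averaged probe sets, adjustment over named genes alone, an adjusted p under 0.01, ribosomal RNA signal entered as covariate, and each array left out.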

Additional observations from a re-analysis of the deposited data

Results flagged for a closer look

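In 15 of 242 groups of 4 arrays examined (the H2O2 and the control arrays of 118 genes and of 3 RNA-quality measures: the ribosomal RNA signal, its 5.8S probe set alone and the 3′ minus 5′ signal), 1 array lay farther from its nearest neighbour, relative to the group's range, than Dixon's critical value for 4 samples. Chance gives about 1 such group in 20. In H2O2 the arrays that stood apart were replicate 4 for CCS1 (14.01, others 14.29 to 14.31), CYC7 (13.45, others 13.73 to 13.78) and CYC3 (12.36, others 12 to 12.06). Replicate 3 stood apart for YOL131W (6.0, others 4.88 to 5.0), SWI5 (10.80, others 10.93 to 10.94) and ECM22 (12.08, others 11.96 to 11.97), and replicate 1 for FLR1 (12.52, others 12.78 to 12.81) and DAL1 (2.36, others 2.35, all in the background). In control they were replicate 2 for SRX1 (9.77, others 9.48 to 9.51) and for the 3′ minus 5′ signal (0.72, others 0.60), replicate 1 for TRX2 (14.95, others 15), RPN4 (13.85, others 13.84) and ERG1 (12.51, others 12.78 to 12.82), and replicate 3 for DAK2 (4.48, others 3.55 to 3.64) and HXT9 (5.60, others 5.33). Among these 14 genes, CYC7 lost its call when the array that stood apart was left out, and the other calls held.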

How the results depend on the processing

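Of 104 genes described and called, 99 stayed called in all of the 19 alternatives at the same threshold in which they were tested. The others were GTO3, CAD1, CYC7, LYS21 and YLR154C-H, and none of the 104 changed sign. DAK2, LSO1, SMK1, DAL1, YOL131W and STL1 were not tested where probe sets with a mean under 6 were left out. Genes not called became called in places: DOT5 with the replicate block, array weights or the ribosomal RNA covariate, ZWF1 with the block, ISU1 with array weights or the 8 arrays alone, HSP12 with the 8 arrays alone, and HYR1 and SKN7 with the covariate. The total of 1148 calls became 877 to 1107 when 1 array was left out (435 to 495 higher, 442 to 612 lower; at 2-fold or more 93 to 105 higher and 33 to 50 lower), and the 225 specific probe sets became 185 to 221 (92 to 106 higher, 91 to 116 lower). At an adjusted p under 0.01 there were 601 calls, 335 higher and 266 lower, 24 of the latter at 2-fold or more, and 119 specific probe sets (64 higher, 55 lower). Without dim probe sets (mean under 6) 25 were lower by 2-fold or more. Without 1 array the ribosomal RNA difference was −2.99 to −0.60 and the 3′ minus 5′ difference 0.07 to 0.12. Small values changed sign when 1 array was left out: TRR2 ranged from −0.01 to 0.02, AFT1 from −0.07 to 0.03, the RNR3 and RNR1 pair from −0.28 to 0.13 and the TPO4 and TPO1 pair from −0.12 to 0.05; the cause was not tested. With 3 arrays against 4 the exact test of a pair cannot pass the threshold. LYS21 lost its call after quantile normalization (adjusted p = 0.0556) and after median centring (adjusted p = 0.0569). The replicate numbers pair the arrays only in part: residuals of same-numbered H2O2 and control arrays correlated at −0.19, −0.05, 0.69 and 0.58. H2O2 replicate 1 correlated best with control replicate 2 (0.42) and H2O2 replicate 2 with control replicate 1 (0.40). Acrolein and NEM arrays showed the same pattern. H2O2 replicate 1 correlated with their replicate 2 at 0.47 and 0.44, and H2O2 replicate 2 with their replicate 1 at 0.51 and 0.49. For same-numbered arrays the values were 0.39 and 0.47 at replicate 3, and 0.40 and 0.57 at replicate 4. The labels do not give this pattern, and the main model has no term for it or for the replicate number. With the number as a replicate block 1475 probe sets were called (697 higher, 778 lower), 284 were specific, and 24 ribosome biogenesis, 26 ribosomal protein and 7 proteasome genes were higher and 2 heat shock genes lower. GCRMA background limits all statements on values near 5.15.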
